A study of Mus musculus with 19 samples.

Results

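Arntl, Clock and Npas2 encode the activators of the circadian clock, and their transcripts were followed in 19 mouse hearts. All 3 genes were measured among the 22180 genes tested, each by a single Affymetrix probe set that the platform annotation assigns to that symbol alone. The hearts were isolated and perfused through the aorta (the Langendorff method), then went through 20 min without flow and 20 min of reperfusion before freezing, after 20 min of stabilisation. There were 5 hearts of mice labelled Rev-erb alpha knockout at ZT12 (KO ZT12), whose strain the labels do not name, 7 of wild-type C57Bl6J mice at ZT12 (WT ZT12) and 7 of wild-type C57Bl6J mice at ZT0 (WT ZT0). ZT0 is lights on and ZT12 lights off. All groups shared the perfusion and the interruption of flow, and the samples used here hold no heart without it and no knockout heart at ZT0. The labels used here give no age. Values are RMA log2 intensities, so a difference of 1 is a factor of 2. In whole hearts fewer cells of a type and less RNA per cell cannot be told apart.

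BMAL1, the product of Arntl, pairs with CLOCK or with its relative NPAS2, and the dimer binds E-boxes (CACGTG) in the Per, Cry, Dbp and Nr1d genes. PER and CRY proteins then block the dimer. In a second loop the receptors REV-ERB alpha (Nr1d1) and REV-ERB beta (Nr1d2) repress Arntl through ROR/REV-ERB elements with the core AGGTCA, and ROR receptors act on the same elements as activators. In the mouse heart the clock of the cardiomyocyte is known to time metabolic and electrical genes.

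The arrays were alike, with medians of 3.25 to 3.32 and correlations between arrays of 0.972 to 0.985. The mean of 9 cardiomyocyte markers was high and even. It lay between 11.29 and 11.37 in KO ZT12, 11.26 and 11.31 in WT ZT12, and 11.27 and 11.33 in WT ZT0 hearts. Single markers differed in level, with Myl2 at a mean of 7.59 in WT ZT12 hearts. Atrial muscle markers (10 of 11 listed genes measured) were uneven. Their mean ran from 5.62 to 8.28 in KO ZT12, from 5.79 to 8.30 in WT ZT12 and from 7.28 to 8.47 in WT ZT0 hearts. Of the 5 arrays more than 1 log2 unit below the median of all arrays, 3 were KO ZT12 and 2 WT ZT12. Adipocyte markers (mean of 6 genes) were uneven too, from 4.68 to 6.54 in KO ZT12, 4.55 to 6.41 in WT ZT12 and 4.86 to 5.92 in WT ZT0 hearts. The mean of 6 macrophage genes ran from 5.46 to 6.37 in KO ZT12, 6.09 to 6.48 in WT ZT12 and 6.11 to 6.465 in WT ZT0 hearts. Nr1d1, the gene named by the knockout label, was between 6.30 and 6.51 in KO ZT12, between 6.46 and 7.28 in WT ZT12 and between 5.76 and 6.67 in WT ZT0 hearts. The difference of -0.35 (SE 0.15) between KO ZT12 and WT ZT12 did not pass (limma adjusted p = 0.374), so this probe set did not check the label, and where its probes lie relative to the deletion is not given in the sources used here. Every direction drawn from the KO hearts below rests on that label.

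The promoter windows of the activators are shown because REV-ERB proteins are known to act at that of Arntl. They span 250 bases before to 50 after an annotated start (RefSeq, GRCm38.p6), read 5′ to 3′ on the gene's strand, with capitals marking every match to the motifs searched. Arntl (chr7:113207261-113207560, + strand), Clock (chr5:76304743-76305042, - strand) and Npas2 (chr1:39194022-39194321, + strand) read as follows.
Arntl: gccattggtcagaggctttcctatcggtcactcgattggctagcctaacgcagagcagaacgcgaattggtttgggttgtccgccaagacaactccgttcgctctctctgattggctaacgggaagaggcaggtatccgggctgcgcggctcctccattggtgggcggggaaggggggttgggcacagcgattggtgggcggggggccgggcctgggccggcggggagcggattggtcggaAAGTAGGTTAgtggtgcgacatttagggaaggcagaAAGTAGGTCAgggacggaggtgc
Clock: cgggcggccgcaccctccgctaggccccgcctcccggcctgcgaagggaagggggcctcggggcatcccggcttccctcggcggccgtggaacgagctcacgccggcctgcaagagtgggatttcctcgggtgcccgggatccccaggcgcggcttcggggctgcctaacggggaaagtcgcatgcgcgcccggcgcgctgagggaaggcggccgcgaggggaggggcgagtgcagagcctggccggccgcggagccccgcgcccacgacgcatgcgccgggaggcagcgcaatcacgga
Npas2: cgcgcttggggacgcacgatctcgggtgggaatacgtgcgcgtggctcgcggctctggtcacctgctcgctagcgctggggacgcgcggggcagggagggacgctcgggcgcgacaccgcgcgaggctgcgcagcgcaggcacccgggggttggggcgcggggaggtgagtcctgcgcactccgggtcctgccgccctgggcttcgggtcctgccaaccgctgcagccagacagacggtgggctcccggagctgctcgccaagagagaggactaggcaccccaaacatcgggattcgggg

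Both strands were searched for the core AGGTCA, present in 16.3% of all 32851 windows. The core extended by a base, TAGGTCA, was present in 2.61%. Its looser form TAGGTNA was present in 8.29%, and in 0.682% this form had AAN directly before it, here called the long element. The E-box CACGTG was present in 7.15% and the D-box TTATGTAA in 0.938%. The first 4 motifs overlap one another by construction. The Arntl window held 2 long elements on the gene's strand, AAGTAGGTTA from base -9 to base 1 and AAGTAGGTCA from base 28 to base 37, counted from 1 at the start with no base 0. Of these 2 matches only the second holds the core AGGTCA, and the free base of the long element admits both. Windows with 2 or more long elements numbered 3, of which this is 1. Whether the pattern was chosen independently of the Arntl sites is not recorded, so this count is a description only. An overlapping Arntl window, of a start further upstream, held the first of these matches. The printed Clock and Npas2 windows held none of the 6 motifs, nor did another Clock window, while the third Clock window held 1 AGGTCA on the opposite strand. A match to letters is a description of the sequence, and its absence says only that these letters are not in that window.

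All 3 activators were lower at the end of the light phase. Here WT ZT12 was set against WT ZT0, a comparison of times of day within the wild type. Of 3 activators, 3 fell, where 0.482% of all genes fell, and for 3 of 3 the groups did not overlap, where 0.374% of all genes were lower without overlap. Arntl, the shared partner of both dimers, was at 3.72 (lowest), 4.09 (median) and 4.31 (highest) in WT ZT12 hearts, against 7.18, 7.27 and 7.36 in WT ZT0 hearts. The highest WT ZT12 heart thus lay far below the lowest WT ZT0 heart. The log2 difference was -3.18 (SE 0.091; limma adjusted p = 9.25e-16), a 9.08-fold lower level, and in size it ranked 1 of all genes tested.

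**Figure D1:**
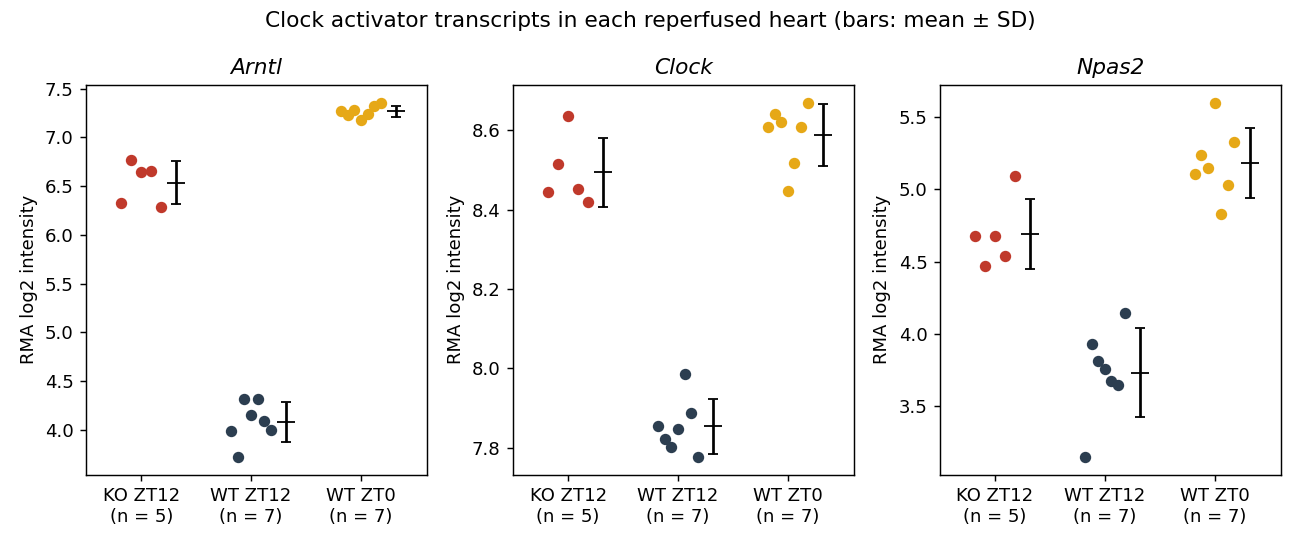
RMA log2 intensity (vertical axis, a separate scale in each panel) of Arntl, Clock and Npas2 in each of 5 KO ZT12, 7 WT ZT12 and 7 WT ZT0 hearts, with 1 point per heart and the mean ± SD beside the points. For each gene all KO ZT12 hearts lie above all WT ZT12 hearts, and for Arntl they also lie below all WT ZT0 hearts.

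Clock, which encodes the main partner of BMAL1, was at 7.78, 7.85 and 7.99 (lowest, median and highest) in WT ZT12 hearts, against 8.45, 8.61 and 8.67 in WT ZT0 hearts. The groups were narrow and apart. The log2 difference was -0.73 (SE 0.056; limma adjusted p = 4.68e-08), or 1.66-fold lower. Npas2, the gene of the alternative partner, was at 3.15, 3.76 and 4.15 in WT ZT12 hearts, against 4.83, 5.15 and 5.60 in WT ZT0 hearts. Its groups were wider but did not overlap, and the log2 difference was -1.45 (SE 0.13; limma adjusted p = 8.23e-07), or 2.73-fold lower. The Npas2 and Arntl levels in WT ZT12 hearts (means of 3.73 and 4.08) were close to the median of 3.78 over the mean levels of all genes. How close they are to the background of the array was not tested, which limits the fold values of both genes in the comparisons with WT ZT12 hearts.

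Endothelial and smooth muscle markers moved with the time of day in part. The mean of 8 endothelial genes ran from 7.61 to 7.89 in WT ZT12 and from 7.80 to 8.01 in WT ZT0 hearts. Of these 8, 1 fell, Kdr, the gene of a VEGF receptor (log2 difference -0.52, limma adjusted p = 0.0016), 0 rose and 7 did not pass, and 3 were lower at an unadjusted p under 0.05. The mean of 6 smooth muscle genes ran from 5.74 to 6.04 in WT ZT12 and from 5.999 to 6.49 in WT ZT0 hearts. None of these 6 passed. At an unadjusted limma p under 0.05, 2 were lower, Cnn1 (log2 difference -0.76) and Acta2 (-0.36). At that limit 1 of 7 fibroblast genes was lower, and 0 cardiomyocyte, macrophage or adipocyte genes differed. The part of these markers in the differences of the activators was not tested.

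The activators changed by unequal amounts. Within each heart the log2 value of 1 gene was subtracted from that of another, and the groups were compared by exact permutation tests (two-sided, 6 comparisons over both contrasts, Benjamini-Hochberg adjusted). Between WT ZT12 and WT ZT0 hearts, Arntl fell by 2.45 log2 units more than Clock (difference of changes -2.45, 95% interval -2.60 to -2.30; exact p = 0.000583, adjusted p = 0.00175). Arntl also fell further than Npas2 (-1.73, interval -2.12 to -1.34; exact p = 0.000583, adjusted p = 0.00175), and Npas2 further than Clock (-0.72, interval -1.08 to -0.37; exact p = 0.00117, adjusted p = 0.00233). The smallest p that 7 against 7 hearts allow is 0.000583. These are differences between the responses of 3 probe sets on the log2 scale.

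In the hearts labelled knockout, all 3 activators were higher than in wild-type hearts of the same hour. This comparison set the labelled genotypes against each other at ZT12, and the strain of the knockout hearts is not named. Of 3 activators, 3 rose, where 0.442% of all genes rose, and for 3 of 3 the groups did not overlap, where 0.969% of all genes were higher without overlap. The WT ZT12 hearts serve both this comparison and that of the times of day, so the opposite signs of the activators in the 2 comparisons are not independent of each other.

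Arntl was at 6.33, 6.77, 6.64, 6.66 and 6.28 in the 5 KO ZT12 hearts, while the highest of the WT ZT12 hearts was at 4.31. The lowest KO heart was thus well above every WT heart of that hour. The log2 difference was 2.45 (SE 0.099; limma adjusted p = 1.24e-12), or 5.48-fold higher, and it again ranked 1 in size. Clock was at 8.44, 8.51, 8.64, 8.45 and 8.42 in KO ZT12 hearts, with 7.99 the highest WT ZT12 value. Its log2 difference was 0.64 (SE 0.062; limma adjusted p = 4.77e-06), or 1.56-fold higher. Npas2 was at 4.68, 4.47, 4.68, 4.54 and 5.09 in KO ZT12 hearts, with 4.15 the highest WT ZT12 value. This gap was the smallest of the 3 relative to the spread, and the log2 difference was 0.96 (SE 0.15; limma adjusted p = 0.0017), or 1.95-fold higher.

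Arntl rose by 1.81 log2 units more than Clock in KO ZT12 against WT ZT12 hearts (95% interval 1.57 to 2.05; exact p = 0.00252, adjusted p = 0.00303). It rose by 1.49 more than Npas2 (interval 0.95 to 2.06; exact p = 0.00252, adjusted p = 0.00303). The rises of Npas2 and Clock differed by 0.32, with an interval of -0.084 to 0.75 (exact p = 0.121, adjusted p = 0.121), so no difference between them passed the test. The smallest p that 5 against 7 hearts allow is 0.00252. Without WT ZT12 replicate 7, the heart highest in Npas2, the difference between Npas2 and Clock was 0.40 and passed (adjusted p = 0.0346).

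The 10 atrial markers had a median log2 difference of -0.50 in KO ZT12 against WT ZT12 hearts (0 rose, 0 fell and 10 did not pass; 0 at an unadjusted limma p under 0.05). In WT ZT12 against WT ZT0 hearts the median was -0.59 (0 rose, 0 fell and 10 did not pass). At an unadjusted limma p under 0.05 there were 2, Gpr22 higher (log2 difference 0.38) and Bmp10 lower (-2.79). The mean of the atrial list was then entered in the model. In KO ZT12 against WT ZT12 hearts the differences were 2.38 for Arntl, 0.63 for Clock and 0.97 for Npas2. These passed (limma adjusted p = 3.47e-12, 2.88e-05 and 0.00444). In WT ZT12 against WT ZT0 hearts they were -3.25, -0.74 and -1.44, and also passed (limma adjusted p = 1.32e-15, 3.53e-07 and 6.4e-06). Dropping the 5 low-atrial arrays leaves 2 KO ZT12 hearts. The differences in KO ZT12 against WT ZT12 hearts were then 2.495 for Arntl, 0.70 for Clock and 0.95 for Npas2. That for Npas2 no longer passed (limma adjusted p = 0.144). None of the other markers passed in this comparison. At an unadjusted limma p under 0.05, 2 cardiomyocyte genes were higher, Ryr2 (log2 difference 0.21) and Myl2 (0.18). At that limit 1 adipocyte and 1 endothelial gene were higher, and 1 endothelial, 1 fibroblast and 1 macrophage gene lower. Their part was not tested.

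The levels in KO ZT12 hearts were then set against WT ZT0 hearts, a comparison that differs in both genotype and hour. Arntl was lower in KO ZT12 hearts, the highest at 6.77 lying below the lowest WT ZT0 heart at 7.18. The log2 difference was -0.73 (SE 0.099; limma adjusted p = 0.000191), or 1.66-fold lower. Of 3 activators this was the 1 that fell, where 0.379% of all genes fell, and the 1 whose groups did not overlap, where 0.532% of all genes were lower without overlap. Clock differed by -0.094 (SE 0.062, 95% interval -0.22 to 0.035; limma adjusted p = 0.591), with 3 KO ZT12 hearts inside the WT ZT0 range and 2 just below it. Npas2 differed by -0.49 (SE 0.15, interval -0.79 to -0.19 before adjustment; limma adjusted p = 0.113), with 1 KO ZT12 heart inside the WT ZT0 range and 4 below it. The order of levels was therefore WT ZT0, KO ZT12 and WT ZT12 for Arntl with no overlap between neighbours, while for Clock and Npas2 the upper pair of groups was not separated by the test. Of the 10 atrial markers 1, Gpr22, rose in this comparison (log2 difference 0.45, limma adjusted p = 0.046), 0 fell and 9 did not pass. Their median was -1.02, and 7 were lower at an unadjusted p under 0.05. Of the other markers, 3 of 8 endothelial, 3 of 6 macrophage and 1 of 6 smooth muscle genes were lower at an unadjusted p under 0.05. At that limit 1 macrophage and 1 cardiomyocyte gene were higher, and none of these passed. With the atrial mean in the model the Arntl difference was -0.87 (limma adjusted p = 0.000134), and after dropping the 5 low-atrial arrays it was -0.78 (limma adjusted p = 0.00394). The part of the endothelial, macrophage, smooth muscle and cardiomyocyte markers was not tested. The gap between Arntl and Clock within a heart was -1.96 ± 0.18 in KO ZT12 (SD, n = 5) and -1.32 ± 0.049 in WT ZT0 hearts (SD, n = 7), a difference that was not tested.

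**Figure D2:**
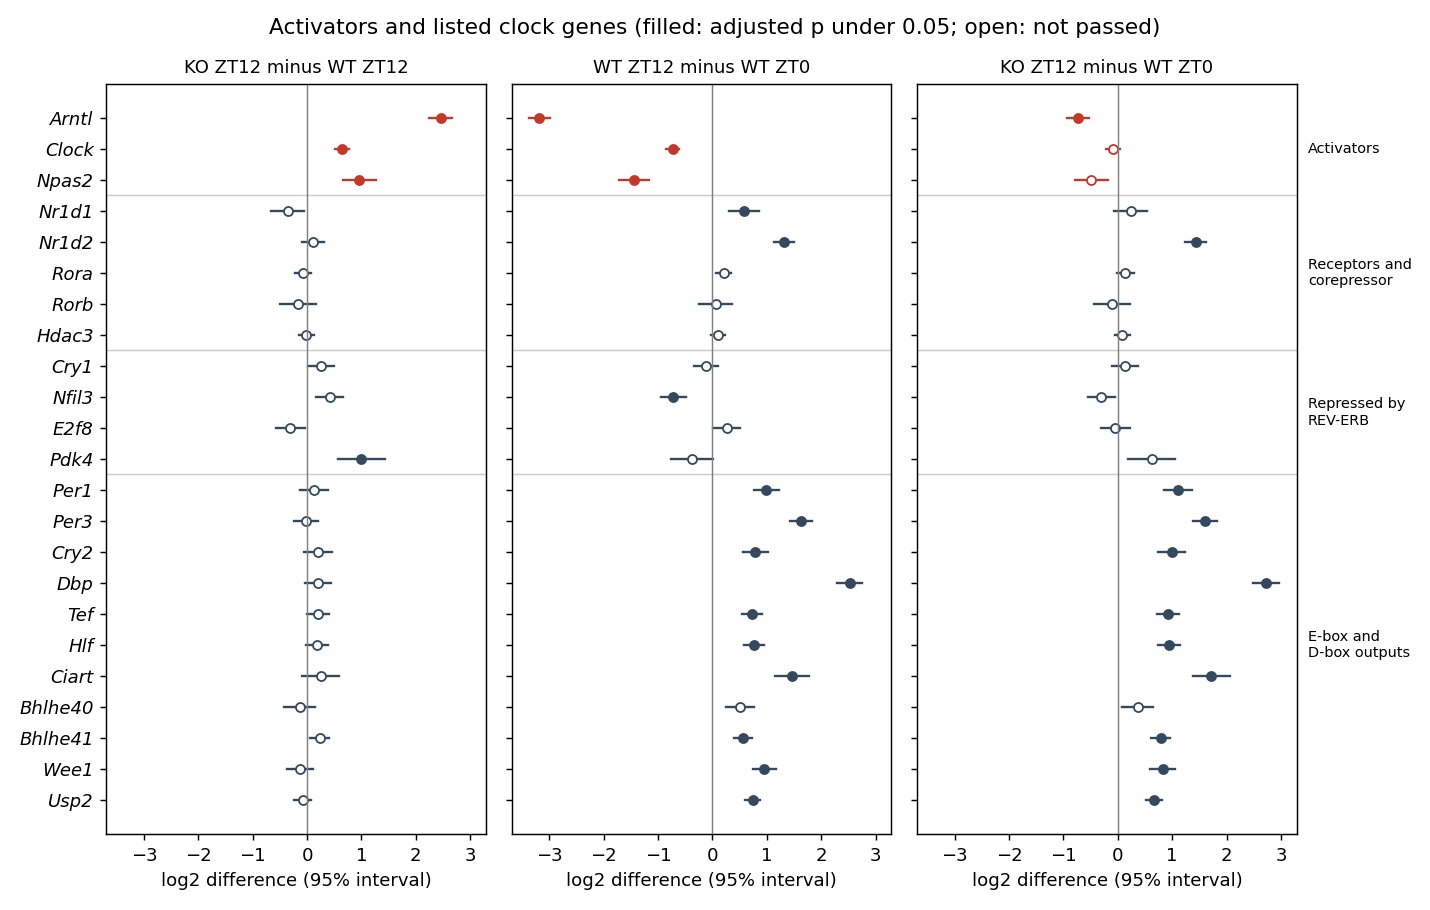
Log2 differences (horizontal axis) with 95% intervals of limma for the 3 activators and the listed clock genes in KO ZT12 minus WT ZT12, WT ZT12 minus WT ZT0, and KO ZT12 minus WT ZT0. Filled points passed at an adjusted p under 0.05; the 3 activators lie above 0 in the first panel and below 0 in the second, while the outputs lie near 0 in the first and above 0 in the second.

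The spread of the activators among hearts of a group was small beside their differences in KO ZT12 against WT ZT12 and in WT ZT12 against WT ZT0 hearts. For Clock in KO ZT12 against WT ZT0 hearts, the difference of -0.094 was about the size of the spread. For Arntl the SD was 0.22 in KO ZT12, 0.21 in WT ZT12 and 0.060 in WT ZT0 hearts. For Clock it was 0.087, 0.068 and 0.078, and for Npas2 0.24, 0.31 and 0.24, in the same order of groups. Whether hearts high in 1 activator were also high in another was asked within each wild-type group of 7 hearts, 6 relations in all, since the groups form separate clusters. None passed after adjustment (exact permutation, adjusted p of 0.229 to 0.825 for Pearson's r and 0.205 to 0.783 for Spearman's rho).

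The strongest Pearson correlation was that of Arntl and Clock in WT ZT0 hearts (r = 0.77, exact p = 0.0381; rho = 0.61, exact p = 0.167). It was 0.24 without the 2 hearts farthest from the median of Arntl, a step that also narrows the range of Arntl. Without 1 heart at a time it ran from 0.55 to 0.93 and did not pass (exact permutation, adjusted p of 0.0583 to 0.471). In WT ZT12 hearts the same pair had r = 0.42 (exact p = 0.352) and rho = 0.32 (exact p = 0.498), and r = -0.15 without the 2 farthest hearts. Npas2 and Clock had r = -0.43 (exact p = 0.305) and rho = -0.82 (exact p = 0.0341) in WT ZT12 hearts, with r = -0.72 without the 2 farthest. In WT ZT0 hearts that pair had r = -0.22 (exact p = 0.619) and rho = 0.21 (exact p = 0.662), but r = 0.96 without the 2 farthest, and 0.97 (adjusted p = 0.0167) without replicate 4 alone. Arntl and Npas2 had r = -0.11 (exact p = 0.825) and rho = -0.14 (exact p = 0.783) in WT ZT12, and r = -0.27 (exact p = 0.57) and rho = -0.21 (exact p = 0.662) in WT ZT0 hearts; without the 2 farthest r was 0.24 and -0.0074.

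**Figure D3:**
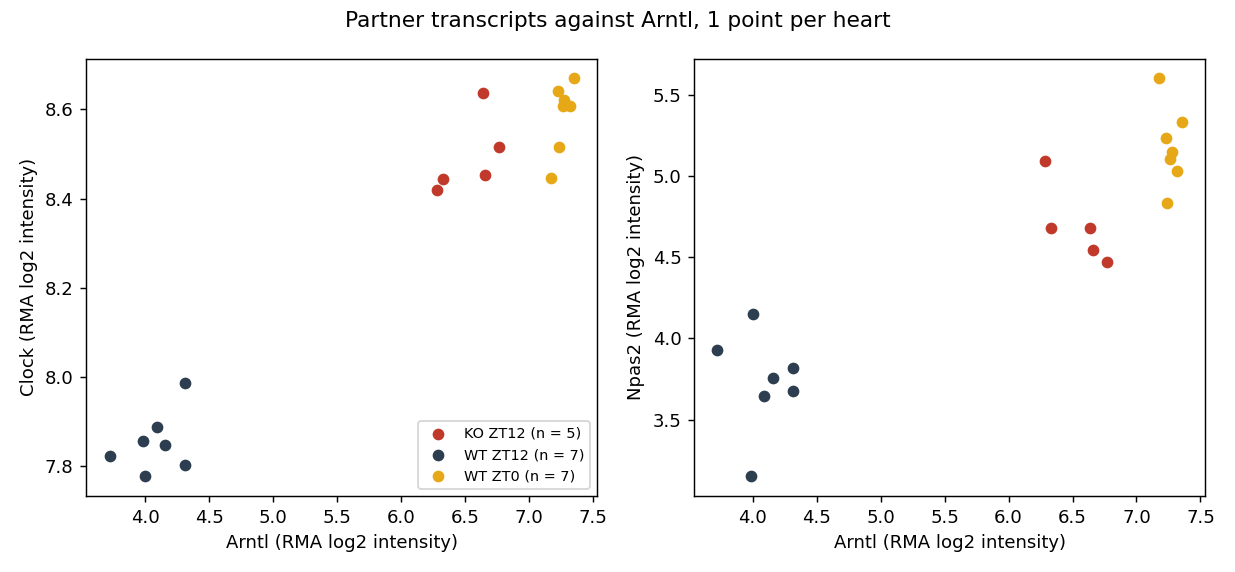
Clock (left) and Npas2 (right) against Arntl, all as RMA log2 intensity, with 1 point for each of 5 KO ZT12, 7 WT ZT12 and 7 WT ZT0 hearts. The groups form separate clusters, with WT ZT12 at the lower left and KO ZT12 between it and WT ZT0 on the Arntl axis, and within the 2 WT clusters no relation passed the test.

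The receptors that act on the Arntl promoter, and the corepressor, were looked at next (5 of 7 listed genes measured). In WT ZT12 against WT ZT0 hearts 2 rose, 0 fell and 3 did not pass, where 0.645% of all genes rose, with a median log2 difference of 0.21, against -0.0035 over all genes. Nr1d2 was at 7.897 ± 0.11 in WT ZT12 and 6.58 ± 0.20 in WT ZT0 hearts (SD, n = 7 each; log2 difference 1.32, limma adjusted p = 3.74e-09). Nr1d1 rose by 0.59 (limma adjusted p = 0.0289). That call was lost when any 1 of 8 arrays was left out (limma adjusted p of 0.052 to 0.0707). These were replicates 1, 2, 3, 4 or 6 of WT ZT0 and replicates 1, 6 or 7 of WT ZT12. It was also lost when KO ZT12 arrays did not enter the fit (limma adjusted p = 0.0709) and when the 5 low-atrial arrays were dropped (0.058). Rora, the gene of an activating receptor of the same element, was at 0.21 (adjusted p = 0.169). In KO ZT12 against WT ZT12 hearts 0 rose (0.442% of all genes rose), 0 fell (0.289% of all genes fell) and 5 did not pass. Nr1d2 was at 0.11 (limma adjusted p = 0.732) and Rora at -0.073 (limma adjusted p = 0.784). At an unadjusted limma p under 0.05 there was 1, Nr1d1, on the lower side. The median was -0.073 in that comparison, against -0.003 over all genes.

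Other genes known to be repressed by REV-ERB proteins numbered 4, all measured. Cry1, Nfil3 and Pdk4 had the sign of the activators in WT ZT12 against WT ZT0 and in KO ZT12 against WT ZT12 hearts. Most of these differences did not pass. E2f8 had the opposite sign in both, at means of 2.83 in KO ZT12, 3.14 in WT ZT12 and 2.88 in WT ZT0 hearts. These levels lay below the median of 3.78 over the mean levels of all genes. Of the 4 genes, 0 rose, 1 fell and 3 did not pass in WT ZT12 against WT ZT0 hearts, where 0.482% of all genes fell. Nfil3, which encodes a repressor of D-box genes, fell by 0.72 (limma adjusted p = 0.000499), with means of 5.58 in WT ZT12 and 6.296 in WT ZT0 hearts. Its promoter window held TAGGTCA on the opposite strand, from base -12 to base -6 of the start (chromosome 13), a motif found in 2.61% of all windows. The windows of Cry1, E2f8 and Pdk4 held neither AGGTCA nor TAGGTNA. Cry1, a gene of the inhibitory arm, was at -0.12 (adjusted p = 0.732), E2f8, a cell cycle repressor gene, at 0.26 (adjusted p = 0.391), and Pdk4, a kinase gene that restrains glucose oxidation, at -0.38 (adjusted p = 0.453).

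In KO ZT12 against WT ZT12 hearts 1 of these 4 genes rose (0.442% of all genes rose), 0 fell (0.289% of all genes fell) and 3 did not pass. Pdk4 was at 10.42 ± 0.55 in KO ZT12 (SD, n = 5) and 9.42 ± 0.39 in WT ZT12 hearts (SD, n = 7; limma adjusted p = 0.0223). That call was lost without KO ZT12 replicate 4 or 5 (adjusted p 0.0544 to 0.0585), when WT ZT0 arrays did not enter the fit (0.0974) and when the 5 low-atrial arrays were dropped (log2 difference 0.62, adjusted p = 0.498). Nfil3 was at 0.42 (adjusted p = 0.119), Cry1 at 0.25 (adjusted p = 0.442) and E2f8 at -0.31 (adjusted p = 0.38). At an unadjusted limma p under 0.05, 3 of the 4 were higher and 1 was lower. By that p, Tef (0.048) ranked 2287 and Myh11 (0.0501) ranked 2351 among all 22180 genes tested. The number of all genes under 0.05, in either direction, lies between these ranks. Against WT ZT0 hearts none of the 4 passed in KO ZT12 hearts, with Pdk4 at 0.62, Cry1 at 0.14 and Nfil3 at -0.30 (limma adjusted p 0.165 to 0.708), and 2 of them were under an unadjusted p of 0.05.

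The genes driven from E-boxes or D-boxes ran opposite to the activators between the times of day (13 of 14 listed genes measured, Nr1d1 and Nr1d2 among them). In WT ZT12 against WT ZT0 hearts 12 rose, 0 fell and 1 did not pass, with a median log2 difference of 0.79, while 0.645% of all genes rose. The call of Nr1d1 among the 12 depended on the arrays used, as given above. Dbp, the transcription factor gene with the largest rise, was at 8.09 ± 0.10 in WT ZT12 and 5.56 ± 0.29 in WT ZT0 hearts (SD, n = 7 each; log2 difference 2.52, limma adjusted p = 1.96e-12). Per3, of the period family, rose by 1.63 and Ciart, a repressor of the dimer, by 1.47. Per1 rose by 0.99, the inhibitor gene Cry2 by 0.79, and the D-box activator genes Hlf and Tef by 0.76 and 0.72. The cell cycle kinase gene Wee1 rose by 0.95, the deubiquitinase gene Usp2 by 0.74 and the repressor gene Bhlhe41 by 0.56. Bhlhe40, a repressor that competes for E-boxes, was at 0.50 (limma adjusted p = 0.0536), and it passed in 8 other settings (adjusted p 0.00201 to 0.0477).

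In KO ZT12 against WT ZT12 hearts, where Arntl was 5.48-fold higher, 0.442% of all genes rose and 0.289% fell. Of these 13 output genes, 0 rose, 0 fell and 13 did not pass. Their median log2 difference was 0.12 and their range -0.35 to 0.25. At an unadjusted limma p under 0.05 there were 2 higher and 1 lower, Nr1d1. Dbp was at 8.03, 8.32 and 8.56 (lowest, median and highest) in KO ZT12 hearts, against 7.91, 8.12 and 8.22 in WT ZT12 hearts. The groups overlapped, and the log2 difference was 0.20 (SE 0.12; limma adjusted p = 0.582). Against WT ZT0 hearts 11 of the 13 rose in KO ZT12 hearts (0.965% of all genes rose), 0 fell and 2 did not pass, Dbp by 2.72, Ciart by 1.72, Per3 by 1.60 and Nr1d2 by 1.43, while Bhlhe40 was at 0.37 and Nr1d1 at 0.23 (limma adjusted p 0.237 and 0.559). Of 11 output genes with a promoter window, 4 (Bhlhe41, Ciart, Per1 and Tef) held CACGTG, a motif found in 8.09% of all genes with a window. Ciart held 3, from base -116 to base -39 of its start.

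Genes of proteins that bind or modify the CLOCK-BMAL1 dimer, such as acetyltransferases, kinases and ubiquitin ligases, stayed close to 0 on the log2 scale. Of 19 measured of 22 listed, 0 rose, 0 fell and 19 did not pass in each of the 3 comparisons, with log2 differences between -0.20 and 0.22. Per comparison and direction 0.289% to 0.965% of all genes were called, so a count of 0 in a list of this size is near that share. At an unadjusted limma p under 0.05 there was 1 in KO ZT12 against WT ZT12, 1 in WT ZT12 against WT ZT0, and 5 (4 higher, 1 lower) in KO ZT12 against WT ZT0 hearts. The same held for 16 other genes of the bHLH-PAS family, to which the activators belong: 0 rose, 0 fell and 16 did not pass in each comparison, with differences between -0.33 and 0.22. Unadjusted, there were 1, 3 and 0 in the same order of comparisons. Several of the family were low, such as Npas3, Npas4, Ahrr and Sim1 (means of 2.08, 2.65, 2.81 and 2.92 in WT ZT12 hearts). These lay below the median of 3.78 over the mean levels of all genes, so their lack of a call says little. Others were higher, such as Arnt at 7.23. Arntl2, the closest relative of Arntl, was at 4.15 in KO ZT12, 3.996 in WT ZT12 and 4.06 in WT ZT0 hearts (limma adjusted p 0.518 to 0.795). No gene of either list passed in the other settings tried.

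Among 10423 genes above the median level, those most like each activator over all 19 hearts were found by Pearson correlation, as a description over hearts that share 3 groups. Clock was the gene most like Arntl (r = 0.98), followed by Clasp1, which encodes a microtubule-binding protein (0.92), Clmp, an adhesion molecule gene (0.91), Unc119b (0.91) and Npas2 (0.91). The genes most like Clock were Arntl (0.98), Unc119b (0.95), Clmp (0.93), Clasp1 (0.91) and the magnesium transporter gene Slc41a3 (0.90). In likeness to Clock, Npas2 ranked 11 (r = 0.87). For Npas2 they were Arntl (0.91), the metalloprotease gene Adam19 (0.88), Clock (0.87), Ypel2 (0.86) and Arap2 (0.85). Over deviations from the group means the correlation turned to -0.32 for Arntl and Npas2 and -0.33 for Clock and Npas2. It turned to -0.14 for Slc41a3 with Clock and -0.0499 for Ypel2 with Npas2. The other pairs kept their sign but were lower. With Arntl, Clock was at 0.48, Clasp1 at 0.42, Unc119b at 0.15 and Clmp at 0.069. With Clock, Unc119b was at 0.61, Clmp at 0.38 and Clasp1 at 0.062. With Npas2, Arap2 was at 0.28 and Adam19 at 0.26. The values over all 19 hearts thus rest in large part on the differences between groups.

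Clasp1 averaged 9.59 in KO ZT12, 9.24 in WT ZT12 and 9.60 in WT ZT0 hearts, and Unc119b 5.32, 4.86 and 5.34, so both lay at about the same mean in KO ZT12 and WT ZT0 hearts, as Clock did. Slc41a3 averaged 7.59 in KO ZT12, 5.83 in WT ZT12 and 7.18 in WT ZT0 hearts, with its highest mean in KO ZT12. At the opposite end were Abcc1, an efflux pump gene (r = -0.88 with Arntl, -0.87 with Clock and -0.86 with Npas2), and Gpcpd1, the gene of a phosphodiesterase (-0.86, -0.85 and -0.86). Mlf1 was the other gene most opposed to Arntl and to Npas2 (-0.86 with each), and Abca6, of the transporter family of Abcc1, to Clock (-0.86). Over deviations from the group means Abcc1 turned to 0.48 with Arntl and 0.17 with Clock, and Gpcpd1 to 0.46 and 0.198. Abca6 was at -0.04 with Clock, and Mlf1 at -0.14 with Arntl and -0.23 with Npas2. With Npas2, Abcc1 was at -0.17 and Gpcpd1 at -0.25. Abcc1 averaged 6.48 in KO ZT12, 6.85 in WT ZT12 and 6.39 in WT ZT0 hearts.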

How the data were processed

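Transcripts of 19 hearts were read on Affymetrix whole-transcript arrays, 1 array per heart, from 300 ng of total RNA. The deposited log2 values are summaries per probe set, which the authors computed by RMA, per the submitters' processing notes; its version is not given in the sources used here, and the log2 scale was read from the range of values (0.21 to 12.88). Of 41345 probe sets, 23521 list 1 gene in the GEO platform annotation, which can be old; 1082 of the 22180 genes had several, and the highest mean was used. Groups came from the titles.

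One linear model with a mean per group was fitted over all 19 arrays (limma 3.58.1, R 4.3.3, eBayes without trend, two-sided, Benjamini-Hochberg over 22180 genes, threshold 0.05). Single values were compared with exact permutation tests (scipy 1.17.1), whose inversion gave their 95% intervals. The analysis was tested on simulated data. Replicates are called biological in the labels, and their number limits the precision.

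The members, gene lists and rule for named genes were chosen with earlier results of these data known. Named were the 3 activators, listed genes, and the 5 most and 3 least correlated genes per activator, leaving out clone names, predicted genes, olfactory receptors and small RNAs. Promoter windows came from RefSeq. Alternatives covered probe sets, normalization, dim probe sets, arrays in the fit, eBayes options, the replicate block, atrial and adipocyte covariates, and left-out arrays.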

Additional observations from a re-analysis of the deposited data

How the results depend on the processing

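Of the 9 log2 differences of the activators, 8 kept their direction and their side of the threshold under all 11 other settings and without any single array. The exception was Npas2 in KO ZT12 against WT ZT12 hearts, at 0.95 (limma adjusted p = 0.144) without the 5 arrays low in atrial markers. That setting leaves 2 KO ZT12 hearts, and with 2 against 5 hearts the permutation tests cannot pass after adjustment: Arntl rose by 1.54 more than Npas2 and by 1.79 more than Clock, each at an adjusted p of 0.114. With the replicate block the Arntl differences were -3.18 for WT ZT12 against WT ZT0, 2.46 for KO ZT12 against WT ZT12 and -0.72 for KO ZT12 against WT ZT0, and the block changed no call of the activators, while Pdk4 in KO ZT12 against WT ZT12 hearts no longer passed (0.96, adjusted p = 0.0708). The block lowered the counts over all genes, to 104 higher and 67 lower for WT ZT12 against WT ZT0, 58 and 30 for KO ZT12 against WT ZT12, and 138 and 44 for KO ZT12 against WT ZT0. Over all genes, the deviations of same-numbered hearts had correlations of -0.072 to 0.074. For WT ZT12 and KO ZT12 hearts their median was 0.049, against -0.017 for hearts of unlike number. The numbers were treated as names of hearts, and a shared step that moved few genes would not show here.

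Without 1 array at a time, the difference between the rises of Npas2 and Clock ran from 0.20 to 0.40. The correlation of Arntl and Npas2 ran from -0.63 to 0.46 in WT ZT0 hearts, reversing without replicate 4, and from -0.52 to 0.18 in WT ZT12 hearts, reversing without replicate 2. That of Npas2 and Clock in WT ZT0 hearts ran from -0.67 to 0.97, the last without replicate 4 (adjusted p = 0.0167). Over deviations from the group means, likeness turned to -0.32 for Arntl and Npas2, -0.33 for Clock and Npas2, 0.48 for Abcc1 and 0.46 for Gpcpd1 with Arntl, -0.14 for Slc41a3, 0.17 for Abcc1 and 0.198 for Gpcpd1 with Clock, and -0.0499 for Ypel2 with Npas2. Nr1d2 in KO ZT12 against WT ZT12 hearts was at -0.0022 without the 5 arrays. The causes were not tested.

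Counts over all genes moved more. For WT ZT12 against WT ZT0, 143 genes rose (97 to 223 in other settings) and 107 fell (56 to 160). For KO ZT12 against WT ZT12, 98 rose (11 to 177; 56 without KO ZT12 replicate 2 or 5, 64 and 63 without WT ZT12 replicate 2 and 4) and 64 fell (4 to 93; 41, 31 and 38 without KO ZT12 replicate 3, 4 and 5, and 41, 42 and 42 without WT ZT12 replicate 2, 4 and 7). For KO ZT12 against WT ZT0, 214 rose (71 to 301, and 134 without KO ZT12 replicate 4) and 84 fell (11 to 157, and 37, 45 and 48 without KO ZT12 replicate 4, KO ZT12 replicate 5 and WT ZT0 replicate 5). The lowest counts were those without the 5 arrays. Levels near the median of all genes, as for Npas2 and Arntl in WT ZT12 hearts, limit what the arrays resolve.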
